A study of Danio rerio with 16 samples.

Results

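The genes described are those of the cytosolic ribosomal proteins, the proteins that build the ribosomes working in the cytoplasm. They were taken from the array's probe-to-gene table by symbol, as symbols that start with rpl or rps and a number. The rule also named the stalk protein symbols rplp0, rplp1, rplp2 and rplp2l, and rpsa. It left out the S6 kinases, rps27l and symbols holding "like". Of 9238 genes with a symbol, 65 were members, 41 of the large subunit and 24 of the small subunit. Of the members named one by one in the rule, rplp0 was measured. Among them, rpl7l1, rpl22l1 and rps26l carry the number of another member and entered by their symbols. All 65 gene identifiers were found in RefSeq's gene list for assembly GRCz12tu, with 0 changed symbols.

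A ribosome joins a large subunit, which forms the peptide bond, to a small subunit, which reads the mRNA. The proteins are needed in equal numbers, and their mRNAs are among the most abundant in growing cells. In vertebrates these mRNAs begin with a pyrimidine tract through which their translation follows the mTOR pathway. A zebrafish egg carries a maternal store of them, so an early embryo holds ribosomal protein mRNA before its own genome is switched on.

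The samples were pools of 60 to 100 whole zebrafish embryos. Every group, controls included, was kept in 15 µg/ml cycloheximide, which stops translation elongation. Treatment began 1.5 hours after fertilization, and the embryos were frozen at 4.7 hours. Of the 5 groups, uninjected wild type embryos (WT) had 3 samples. The others were uninjected mutants without maternal and zygotic function of spg, the zebrafish Pou5f1 gene, with its m793 allele (MZ, 3 samples), MZ mutants given 100 pg of Pou5f1 mRNA (MZ_Pou5f1, 3 samples), wild type given 50 pg of Sox2 mRNA (WT_Sox2, 3 samples) and MZ mutants given the same Sox2 dose (MZ_Sox2, 4 samples). Each dye of a 2-colour Agilent array carried 1 sample, and values are intensities after the authors' quantile normalisation, printed to 4 significant digits. Replicates are biological, per the series' design text.

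The samples did not separate by their labels. Over 10747 probes brighter than the median, 6 of 16 samples had their highest Spearman correlation with a sample of the same group. These correlations are across probes, and probes are no independent replicates. The samples labelled WT replicates 1 and 2 correlated at 0.997, although they lay on different slides and in different dyes, and MZ_Pou5f1 replicate 3 correlated at 0.993 with WT replicate 1. For WT replicate 3 the highest was 0.943, with MZ replicate 2. The dark control feature read 52.76 in WT replicate 3 and 132.7 in MZ replicate 1, against 6.854 to 12.57 in the other samples. The pou5f3 probe was bright in all samples, from 14120 to 62090, and the sox2 probe read 18.81 to 37.81 in WT_Sox2, below the 107.8 to 314.8 of WT. Neither checks the labels, because where the probes lie relative to the m793 change or the injected mRNAs is not stated in the sources. Of the blastula markers, pou5f3 and sox3 were measured and lay above the dark feature in every sample. So did the enveloping layer keratins krt4, krt18a.1 and krt5, whereas cyt1 lay at or below it in 5 samples, krt18b in 4 and the claudin cldne in 11 of 16. Each statement below is about samples carrying the stated labels.

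Ribosomal protein probes were bright. Of the 65 members, 45 had a mean above the 90th percentile of all probes and 10 above the 99th. Their mean log2 intensities ran from 5.51 for rps24 to 15.53 for rps25, against a median of 5.65 over all probes. These levels belong to probes and do not rank the genes by mRNA amount. The rps24 probe was the 1 member under that median, and it read at or below the dark feature in WT replicate 3 and MZ replicate 1. Together with rps8b and rps26l it was among 3 members that did so in any sample.

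The median spread of the members between samples was wider than that of bright probes. The members' SD over the 16 samples had a median of 0.59 on the log2 scale, against 0.48 for all probes above the 90th percentile. The 0.59 covers all 65 members, and the 45 above that percentile were not compared alone. The SD was lowest for rpl17, which lines the exit tunnel, at 0.29, with intensities from 20250 to 39650. It was 0.32 for rpl13a, a common reference gene in zebrafish PCR that ran from 16620 to 38450, and also 0.32 for rpl6. In rpl13a the samples labelled MZ_Pou5f1 read 24710, 20400 and 23140, below all 3 WT samples at 25750, 28730 and 36130, a log2 difference of -0.35 (SE 0.28, adjusted p = 0.735, limma). With the mean of its probes in place of the brightest that difference was 0.03. The narrow spread is that of the brightest rpl13a probe only. In MZ against WT that probe gave 0.18, but a further bright probe, of mean log2 13.18, gave 1.39 (adjusted p = 0.309, limma). A dimmer one gave 0.11.

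To compare samples, each probe was centred on its mean over the 16 samples, and the median of the members was taken. This median was -0.55, -0.40 and -0.02 in WT replicates 1, 2 and 3. It was 0.62, 0.47 and 0.14 in MZ, 0.11, -0.21 and -0.27 in MZ_Pou5f1, and -0.11, -0.24 and 0.06 in WT_Sox2. In MZ_Sox2 it was -0.14, 0.66, -0.06 and 0.17. All 3 MZ samples therefore lay above all 3 WT samples, while MZ_Sox2 overlapped MZ, MZ_Pou5f1, WT_Sox2 and WT. In MZ_Sox2 replicate 2, 63 of the 65 members lay above their own means, against 12 in WT replicate 1. Some markers of other cells stood apart in the same samples. The enveloping layer keratin krt4 read 4600, 5799 and 6118 in MZ replicates 1 and 2 and MZ_Sox2 replicate 2, the 3 samples with the highest member medians, and 52.45 in WT replicate 1. The yolk syncytial layer gene apoeb read 24630, 28980 and 39910 in those 3 and 165.5 in WT replicate 1. Both were also high in WT replicate 3, at 2476 and 27080, where the members' median was -0.02. In MZ_Sox2 replicate 4 krt4 read 4005 with a member median of 0.17, and in WT_Sox2 replicate 2 apoeb read 9643 with -0.24. In MZ replicates 1 and 2 and MZ_Sox2 replicate 2, krt18a.1, krt5, mxtx2 and gata6 were also higher than in WT replicate 1. The dim krt18b read 6.854, 15.77 and 8.541 there against 11.24 in WT replicate 1, and apoa4b.1 7.802, 8.244 and 8.215 against 11.81. Also dim, cldne read 6.827, 7.015 and 12.36 against 7.864, and cyt1 16.29, 20.64 and 45.26 against 9.933. The part of these cells in the members' levels was not tested. Over all probes above the 90th percentile the sample medians ran from -0.13 to 0.07, and MZ replicate 1 was the lowest.

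**Figure D1:**
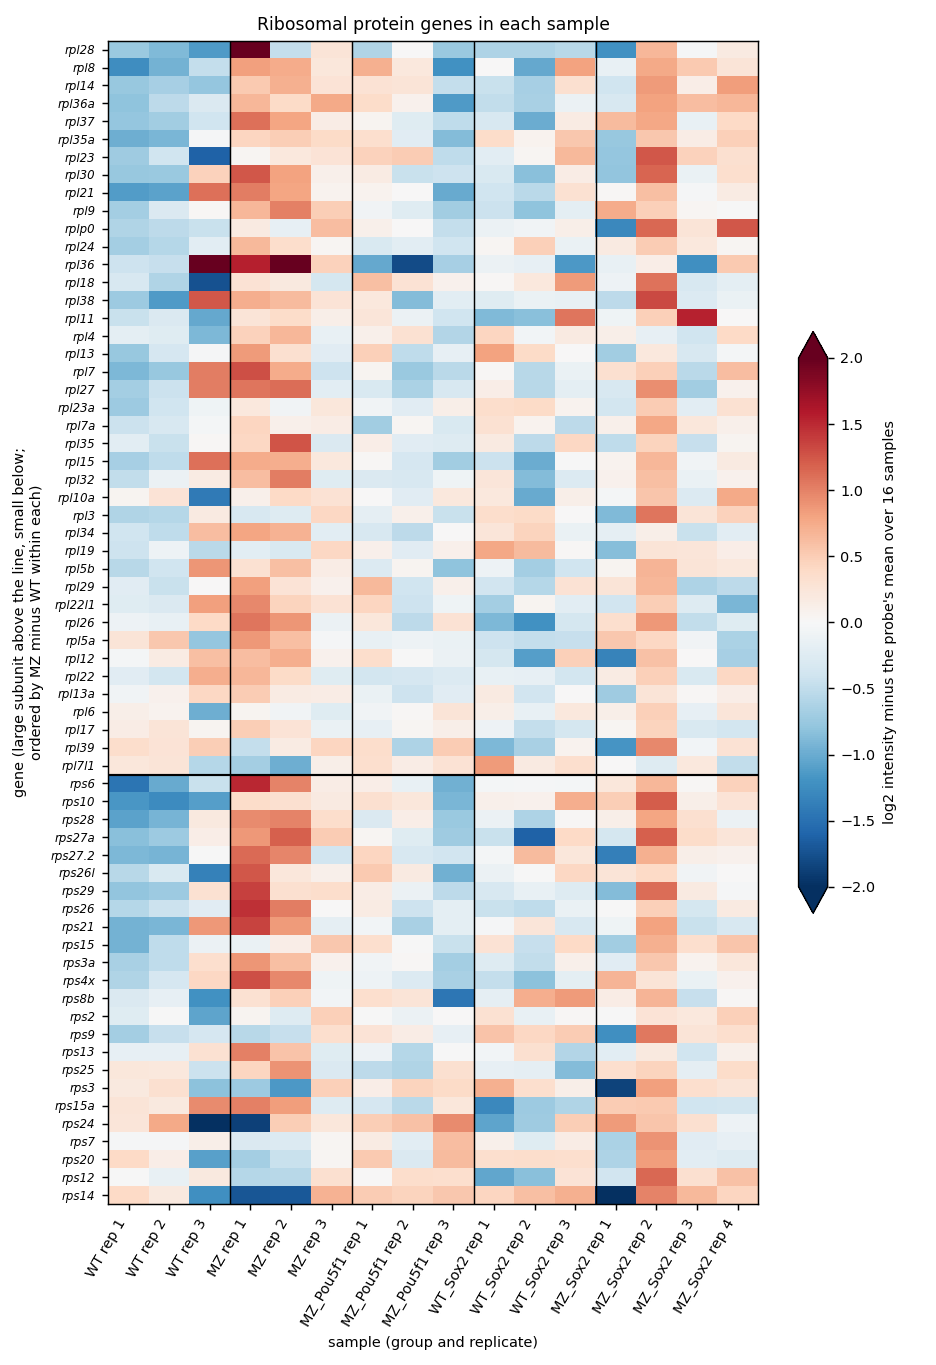
Log2 intensity of each of the 65 genes (rows) in each of the 16 samples (columns), as the difference from the probe's mean over all samples; red is above and blue below that mean, with the scale ending at 2 on either side. WT replicates 1 and 2 are blue for most genes, and MZ replicates 1 and 2 and MZ_Sox2 replicate 2 are red for most. In WT and MZ replicates 1 and 2 rps14 runs against most genes, but in MZ_Sox2 replicate 2 it does not.

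Large and small subunit genes followed each other. The large subunit median minus the small subunit median ran from -0.33 in WT_Sox2 replicate 2 to 0.18 in WT replicate 3, and it was below 0 in 11 samples. The median of all members ran over a wider interval, from -0.55 to 0.66. By group the difference between subunits was 0.05 ± 0.13 (SD, n = 3) in WT, -0.02 ± 0.03 (SD, n = 3) in MZ, -0.09 ± 0.02 (SD, n = 3) in MZ_Pou5f1, -0.16 ± 0.16 (SD, n = 3) in WT_Sox2. In MZ_Sox2 it was -0.06 ± 0.10 (SD, n = 4). The values of all groups overlapped, except that those of MZ_Pou5f1 lay below those of MZ. That gap, between -0.06 and -0.04, was narrower than the pooled SD within groups, 0.1. It also depended on the scoring. Without dim members MZ replicate 1 stood at -0.25, and in the fit large minus small was 0.02 for MZ_Pou5f1 against MZ. The signs of both medians matched in 14 of 16 samples.

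**Figure D2:**
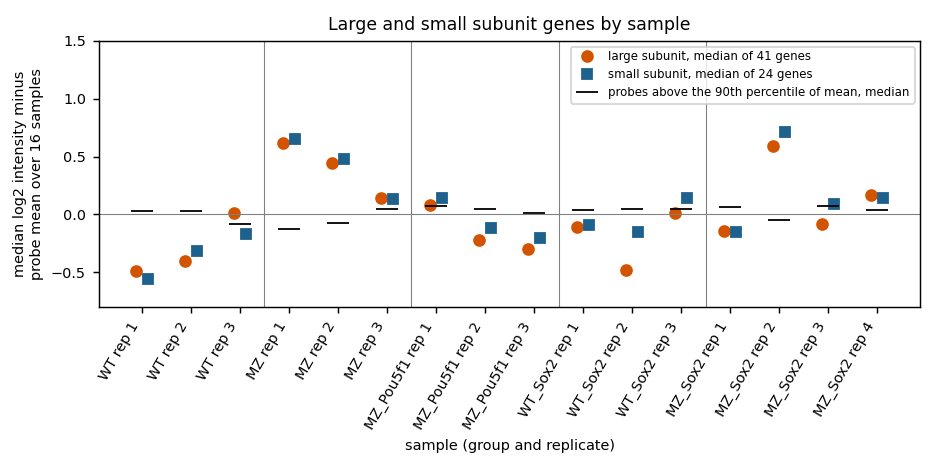
Median over the 41 large subunit genes (circles) and the 24 small subunit genes (squares) of the log2 intensity minus the probe's mean, for each sample, with the median over all probes above the 90th percentile as a dash. Circle and square lie close together in nearly every sample, with the widest gap, -0.33, in WT_Sox2 replicate 2.

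Setting MZ against WT compares embryos without and with Pou5f1 function, all frozen under cycloheximide. The MZ mutants also lacked the maternal function, so the groups differed before cycloheximide was added. A difference already present in the egg's maternal store and one that arose during the block cannot be told apart here. Of the 65 members, 56 had a positive difference, 39 of 41 of the large and 17 of 24 of the small subunit, where 47.4% of all probes were positive. The median log2 difference of the members was 0.67, that of all probes -0.04. In 23 members all MZ samples lay above all WT samples, against 5.23% of all probes, and in 0 members below, against 7.96%. No member passed the adjusted threshold of 0.05 (limma, smallest adjusted p = 0.239), while 23 had an unadjusted p under 0.05, all of them higher in MZ. Of all probes 12.2% had such a p, 5.54% higher in MZ, and limma called 0.00465%. The large and small subunit medians were 0.62 and 0.76, and the sign of their difference, -0.14, turned without the samples WT replicate 3 and MZ replicate 1 (0.14). In pooled embryos, fewer cells of a type and less mRNA per cell cannot be told apart.

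The member with the highest statistic was rps6, the small subunit protein phosphorylated by S6 kinase. Its intensity was 1612, 2195 and 3245 in WT and 12650, 8851 and 4903 in MZ. The groups did not overlap, and the log2 difference was 1.86 (SE 0.39, adjusted p = 0.239, limma). The gene rps10, whose human counterpart is mutated in Diamond-Blackfan anaemia, read 509.3, 476.5 and 532 in WT and 1468, 1421 and 1294 in MZ. Its replicates were close within both groups, and the difference of 1.45 (SE 0.36) did not pass (adjusted p = 0.297). Those WT values were also the lowest of all 16 samples for this gene, with MZ_Pou5f1 replicate 3 next at 606.4.

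The remaining small subunit genes with the highest statistics were rps28 and rps26, of which rps26 sits where the mRNA leaves the ribosome. In rps28 the WT samples read 318.7, 352.9 and 772 and the MZ samples 1298, 1341 and 860.4. In rps26 they read 8532, 9344 and 10810 against 34690, 25650 and 12680. The differences were 1.41 (SE 0.38) for rps28 and 1.13 (SE 0.32) for rps26, and the groups did not overlap in either gene. In both, MZ replicate 3 was the lowest of the MZ samples.

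On the large subunit, rpl37 read 616.2, 651.5 and 802.2 in WT and 2258, 1819 and 1163 in MZ. The gene rpl24, whose product forms a bridge between the subunits, read 23710, 25700 and 32920 in WT and 59690, 48870 and 39350 in MZ. The groups did not overlap, with differences of 1.18 (SE 0.33) for rpl37 and 0.87 (SE 0.24) for rpl24. For rpl9, a protein at the base of the stalk, WT read 8652, 11260 and 13960 and MZ 21790, 27760 and 19290, a difference of 0.99 (SE 0.29, adjusted p = 0.31, limma). The further probes of rpl9 gave 0.65, 0.27 and -0.59, so they did not share a sign. In rpl14 the WT samples were close, at 1040, 1114 and 1037, and the MZ samples read 2535, 2894 and 2142, a difference of 1.26 (SE 0.37). For rpl8 WT read 8819, 10780 and 14960 and MZ 36800, 34690 and 24330. In both genes the groups were apart, and MZ_Pou5f1 replicate 3, at 1271 for rpl14 and 8951 for rpl8, lay far below the other samples of its group.

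The stalk binds translation factors, and rplp0 anchors it. The WT samples of rplp0 were close, at 4582, 4854 and 5102, and the MZ samples read 7895, 6216 and 10680. They did not overlap, and the difference was 0.94 (SE 0.46, adjusted p = 0.435). MZ_Sox2 held both the lowest and the highest rplp0 value of all samples, 2849 in replicate 1 and 16510 in replicate 4. The further 4 probes of rplp0 read 3146 and 7695, 2678 and 8515, 4607 and 11330, and 5090 and 11660 in MZ_Sox2 replicates 1 and 2, so replicate 1 lay below replicate 2 in each. Their lowest values lay elsewhere, at 2197 in WT_Sox2 replicate 2 for 1 probe and at 2282, 1697 and 1203 in WT replicate 3 for the others. Their highest values lay in MZ_Sox2 replicate 2, so the extremes of the brightest rplp0 probe were not those of the further probes.

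The 5S particle, which joins the large subunit during assembly and binds Mdm2 when free, is formed by rpl5a, rpl5b and rpl11. For rpl11 the WT samples read 28980, 32220 and 19450 and the MZ samples 47090, 51110 and 42800, without overlap, a difference of 0.74 (SE 0.51, adjusted p = 0.555). The paralogs rpl5a and rpl5b overlapped between the groups, with differences of 0.36 (SE 0.35), which was -0.11 without WT replicate 3 and MZ replicate 1, and 0.47 (SE 0.35). They parted in WT replicate 3, where rpl5a had its lowest value, 2754, and the brightest probe of rpl5b its highest, 48640. The other bright rpl5b probes peaked elsewhere, as at 64440 in MZ replicate 2 against 36800 in WT replicate 3. The dim rpl5b probes that peaked in WT replicate 3 did so at 397.1 and 105. Another dim probe read 160.5 there and peaked at 585.7 in WT_Sox2 replicate 2. The ubiquitin fusion gene rps27a read 11270, 12130 and 22010 in WT and 36680, 46020 and 28730 in MZ, a difference of 1.32 (SE 0.51, adjusted p = 0.36) without overlap.

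**Figure D3:**
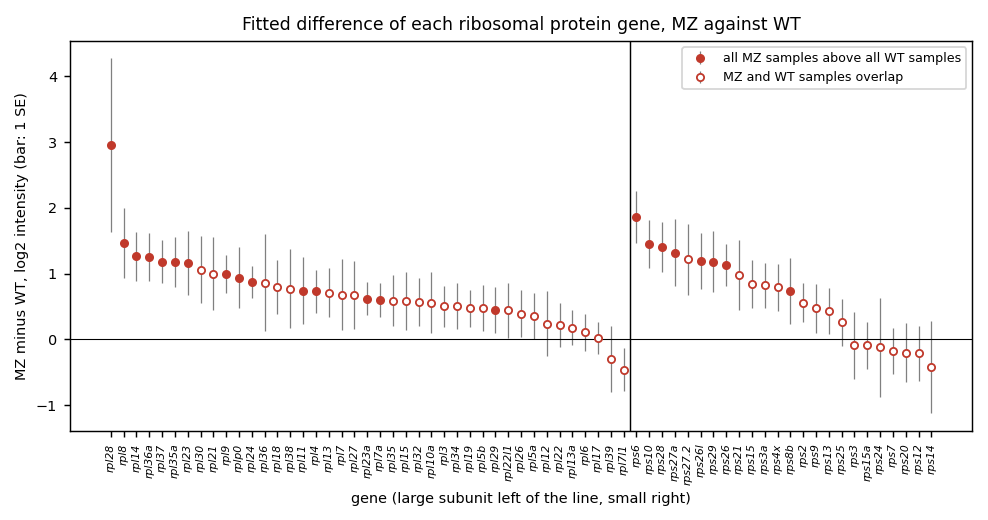
Fitted MZ minus WT difference in log2 intensity for each gene with 1 SE, ordered within the large (left) and small (right) subunit; filled points are the 23 genes whose MZ samples all lie above all WT samples. The point furthest from 0, rpl28 at 2.95, owes its size to 1 sample.

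The widest spread belonged to rpl28, where MZ replicate 1 read 63210 and the other 15 samples lay between 308.3 and 1130. Its second probe read 612.5 in the same sample, inside its range of 212.1 to 989.4. The size of the difference of 2.95 (SE 1.32, adjusted p = 0.401) for the brightest probe of rpl28 therefore rests on 1 sample and 1 probe. Its direction does not, as MZ replicates 2 and 3 read 512.6 and 846.7 there, above 425.8, 384.9 and 323 in WT. The second probe read 612.5, 852.6 and 723.9 in MZ and 212.1, 249.5 and 518.9 in WT, a difference of 1.36 (adjusted p = 0.31, limma). The gene rpl36 also set a few samples apart, at 1177 in WT replicate 3, 650.8 and 954.6 in MZ replicates 1 and 2, and 64.27 to 320.2 in the remaining 13.

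In the fit with its dye term, negative differences belonged to rpl7l1, rpl39, rps3, rps7, rps12, rps14, rps15a, rps20 and rps24, 9 members of which none had an unadjusted p under 0.05. For rps15a and rps24 the plain group means were 13.05 and 5.12 in MZ against 12.99 and 5.10 in WT, so their sign came with the dye term. The platform protein rps14, known from human 5q- syndrome, read 8219 and 8258 in MZ replicates 1 and 2 but 43670 in replicate 3. It read 35310, 30820 and 11470 in WT and 6762 in MZ_Sox2 replicate 1. In the 12 samples other than WT replicate 3, MZ replicates 1 and 2 and MZ_Sox2 replicate 1 it lay between 30820 and 53140. The same 4 samples held the 4 lowest values of rps3, a protein of the mRNA entry channel, at 3582, 3794, 2845 and 1742 against 6836 to 11120 elsewhere. In rps20, of the small subunit head, they also held the lowest values, at 12090, 15910, 18750 and 16770 against 20870 to 45800. These samples lay on 2 slides and carried 3 labels, and they were picked out after their values were seen. The fitted differences of rps14, rps20 and rps3 were -0.42 (SE 0.70), -0.20 (SE 0.45) and -0.09 (SE 0.51). Without WT replicate 1 they were 0.51, 0.23 and 0.55, so the direction rested on single samples.

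**Figure D4:**
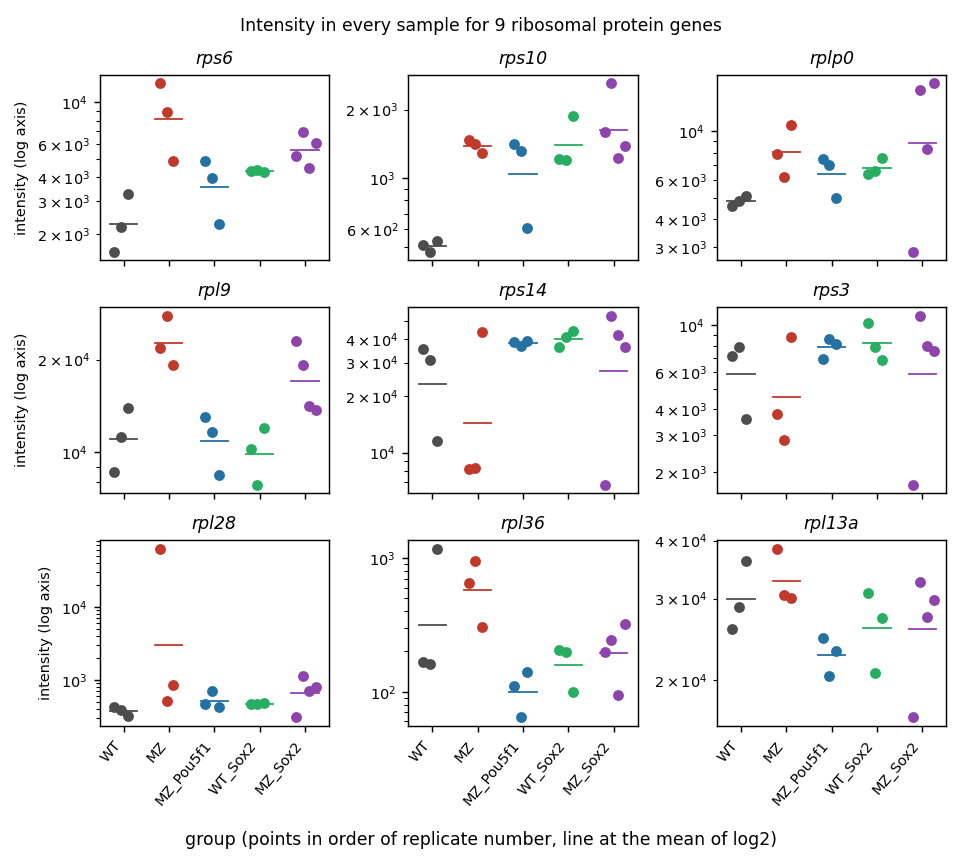
Intensity (log axis) of 9 genes in every sample by group, with points in order of replicate number and a line at the mean of the log2 values. For rps6, rps10, rplp0 and rpl9 all MZ points lie above all WT points, rps14 and rps3 have 1 to 2 low points in WT, MZ and MZ_Sox2, and rpl28 has a single high point at 63210.

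The difference between MZ and WT was also read within arrays, because 3 arrays held an MZ and a WT sample together. On the array with MZ replicate 3 and WT replicate 1, 52 of 65 members were higher in MZ (median 0.56). For MZ replicate 1 and WT replicate 2 it was 53 (median 0.95), and for MZ replicate 2 and WT replicate 3 it was 46 (median 0.34). In 34 members MZ was the higher on all 3 arrays, against 13.3% of all probes, and 1 member, rpl7l1, was lower on all 3, against 19.9%. MZ carried Cy5 on 2 of these arrays and Cy3 on the other, and the members' median Cy5 minus Cy3 difference in the fit was 0.01. On all 3 arrays rps6 was higher in MZ, by 1.61, 2.53 and 1.45, and rps10 by 1.35, 1.62 and 1.42.

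The MZ mean minus each WT sample gave members' medians of 0.82, 0.73 and 0.35. Within slides the median was 0.79 with 2 samples per group and 0.56 with 1. Without WT replicate 3 and MZ replicate 1, the samples with a high dark feature, 54 members were positive with a median of 0.66, and limma called 0 members (smallest adjusted p = 0.164). Single samples moved the calls. Without WT replicate 2 limma called 12 members higher, rps6, rps10, rps28, rpl9 and rpl24 among them, against 2.7% of all probes. Without MZ replicate 1 it called 11, against 3.04%. Markers of other cells were read beside these counts. The summed level of the yolk syncytial layer markers, 4 of 5 measured, was 11.24 to 15.40 on the log2 scale in WT and 13.80 to 15.46 in MZ, with apoa4b.1 at or below the dark feature in 5 samples. The summed enveloping layer level was 8.45 to 11.62 in WT and 9.26 to 13.11 in MZ (6 of 6 measured). For the germ line it was 15.48 to 16.35 and 15.24 to 16.07 (6 of 6), and for the egg coat 12.80 to 12.92 and 13.06 to 13.66 (2 of 5). The blastula sum (2 of 4) was 14.2 to 15.13 in WT and 15.09 to 16.05 in MZ. It holds pou5f3, the gene mutated in MZ, and so cannot serve as a reading of cell amounts. The part of these cells in the result was not tested.

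Pou5f1 mRNA in MZ mutants asks what the protein changes directly. This comparison shares the MZ samples with the last one. Of the members, 53 had a negative difference, with a median of -0.59 against 0.06 for all probes, of which 53.6% were positive. The groups were apart with MZ_Pou5f1 the lower in 20 members, against 6.51% of all probes, and the higher in 2, rpl7l1 and rps24, against 10.4%. Without MZ replicate 1 the difference of rps24, 1.06 (SE 0.75), was -0.32. No member passed (smallest adjusted p = 0.409), limma called 0% of all probes, and 12 of 65 members had an unadjusted p under 0.05, against 12.2% of all probes. The large and small subunit medians were -0.59 and -0.61. Without MZ replicate 1 the median of the members was -0.38. Marker sums differed between the same groups. On the log2 scale the yolk syncytial layer sum (4 of 5 markers) was 10.47 to 11.92 in MZ_Pou5f1 and 13.80 to 15.46 in MZ, without overlap, and apoa4b.1 was near the dark feature. The germ line sum (6 of 6) was 16.14 to 16.52 against 15.24 to 16.07, also without overlap. Of its genes only dazl was apart, at 28550, 46690 and 36030 in MZ_Pou5f1 and 14930, 6089 and 24990 in MZ. In ddx4, nanos3, dnd1, ca15b and tdrd7a the 2 groups overlapped. The blastula sum (2 of 4) was 13.80 to 14.98 against 15.09 to 16.05. The blastula sum holds pou5f3, the gene mutated in MZ, so it cannot serve as a reading of cell amounts here. The enveloping layer sum was 8.14 to 9.47 against 9.26 to 13.11, with overlap, and the egg coat sum 12.93 to 14.35 against 13.06 to 13.66. The part of these cells in the result was not tested.

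In rps6 the MZ_Pou5f1 samples read 4879, 3990 and 2270, all below MZ, a difference of -1.21 (SE 0.39). In rpl9 they read 13070, 11680 and 8477, a difference of -1.06 (SE 0.29). In rps28 they read 552.4, 738.3 and 401.5 (-1.06, SE 0.38). The small subunit gene rps4x read 14840, 13060 and 10160 against 38580, 30750 and 14960 in MZ (-1.06, SE 0.36). All of these had an adjusted p of 0.409. The further probes of rpl9 gave -0.63, -0.41 and 0.15. For rps6 and rps4x the groups were barely apart, at 4903 and 14960 in MZ replicate 3 against 4879 and 14840 in MZ_Pou5f1 replicate 1.

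In the opposite direction, the assembly factor rpl7l1 read 18660, 16510 and 18170 in MZ_Pou5f1 and 9212, 7550 and 16100 in MZ (0.77, SE 0.33, adjusted p = 0.409). The MZ value nearest to the injected samples was again replicate 3. The slide of the MZ_Pou5f1 samples held MZ replicate 3 as its only MZ sample. Within that slide the members' median was -0.25 and 18 of 65 were positive. Without MZ replicate 3 limma called rps6, rps26 and rps4x lower, against 1.98% of all probes.

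**Figure D5:**
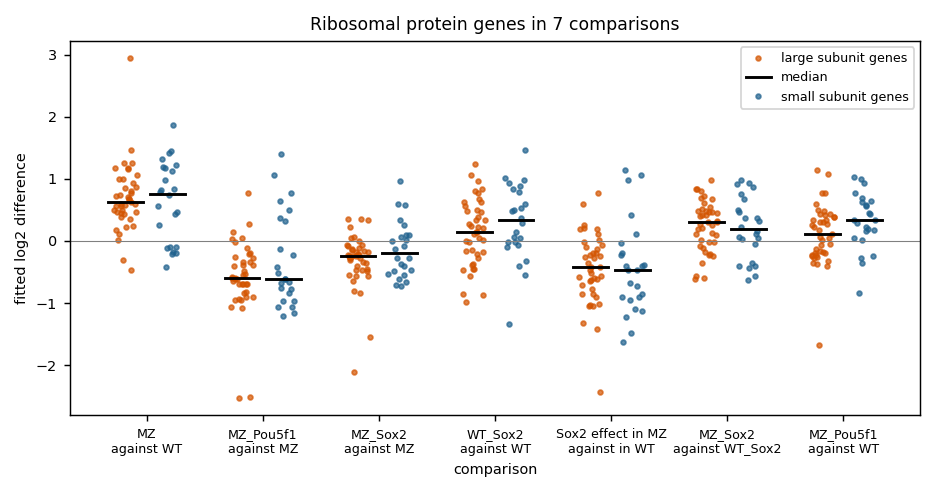
Fitted log2 difference of each gene in the 7 comparisons, for large (left of each pair) and small subunit genes (right), with a bar at the median. The medians are highest in MZ against WT (0.62 and 0.76) and lowest in MZ_Pou5f1 against MZ (-0.59 and -0.61).

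Pou5f1-injected mutants were also set against wild type. In this comparison 44 of 65 members were positive, 24 of 41 of the large and 20 of 24 of the small subunit, where 47.4% of all probes were. The median was 0.22, against -0.04 for all probes. It was 0.06 without WT replicate 1, with 35 members positive, 0.07 without WT replicate 2 and 0.14 without MZ_Pou5f1 replicate 1. Groups did not overlap in 6 members (9.23%) higher and 2 (3.08%) lower in MZ_Pou5f1, against 6.66% and 8.84% of all probes. Limma called no member and 0% of all probes, and 5 of 65 members had an unadjusted p under 0.05, against 7.24% of all probes. The highest statistics were those of rps10, at 1413, 1324 and 606.4 against 509.3, 476.5 and 532 in WT (1.03, SE 0.37, adjusted p = 0.67), and of rpl18, at 680.7, 548.3 and 476.5 against 359.8, 297.8 and 134.8 (1.08, SE 0.42, adjusted p = 0.67).

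Sox2 mRNA in MZ mutants gave no member with an unadjusted p under 0.05, against 4.82% of all probes, and limma called 0% of all probes (smallest adjusted p among members 0.77). Of the members 50 were negative and 15 positive, with a median of -0.25, where 53.4% of all probes were positive. With the values as deposited 25 were positive. Groups did not overlap in 0 members in either direction, against 2.11% of all probes higher and 2.09% lower. MZ_Sox2 replicates 1 and 2 stood on opposite sides. Without replicate 1 the positive members numbered 23 with a median of -0.10, and without replicate 2 they numbered 9, in place of 15. The median was -0.14 without MZ replicate 1 or 2 and -0.49 without MZ replicate 3. In rps26, with the second lowest statistic, MZ_Sox2 read 12540, 17530, 9960 and 14330 against 34690, 25650 and 12680 in MZ (-0.62, SE 0.31). MZ and MZ_Sox2 shared no slide, and the effect of Sox2 and that of the slide cannot be told apart.

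Sox2 mRNA in wild type embryos gave differences in both directions. Of the 65, 41 were positive, with a median of 0.21 against -0.06 for all probes, of which 45.2% were positive. Groups did not overlap in 15 members (23.1%) higher and 4 (6.15%) lower, against 12% and 15.3% of all probes. An unadjusted p under 0.05 was found in 11 of 65 members, against 14.5% of all probes. Limma called 0.0977% of all probes and no member (smallest adjusted p = 0.11). WT and WT_Sox2 shared no slide either, and without WT replicate 2 the median was -0.01 with 32 members positive. It was 0.08 without WT replicate 1 and 0.03 without WT_Sox2 replicate 3.

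The member with the highest statistic there was rps10, at 1218, 1207 and 1884 in WT_Sox2 (1.47, SE 0.36, adjusted p = 0.11). Its WT values, the lowest of all samples, are the same ones used in MZ against WT and MZ_Pou5f1 against WT. In rps9 the groups were also apart, at 32300, 28850 and 30890 in WT_Sox2 and 13650, 15850 and 17240 in WT (0.98, SE 0.37, adjusted p = 0.255). On the large subunit, in rpl19, of an intersubunit bridge, WT_Sox2 read 46690, 42120 and 27760 against 20370, 25400 and 18730 in WT (0.83, SE 0.28, adjusted p = 0.21). Lower were rps15a, at 2393, 3552 and 3865 against 7029, 6745 and 11240 (-1.34, SE 0.36, adjusted p = 0.128), and rpl26, at the tunnel exit, at 16790, 13480 and 24540 against 29150, 28350 and 41360 (-0.87, SE 0.36, adjusted p = 0.294). All 3 WT_Sox2 samples lay on 1 side of all 3 WT samples for these 5 genes.

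The difference between the Sox2 effects in MZ and in WT was negative in 52 members, with a median of -0.46 against 0.05 for all probes, of which 52.5% were positive. It reuses the MZ and WT samples and equals the MZ_Sox2 against WT_Sox2 difference minus the MZ against WT difference. The members' medians of those were 0.27 and 0.67, so it is not separate from MZ against WT. Uninjected and Sox2-injected samples shared no slide. No member passed (smallest adjusted p = 0.473), limma called 0% of all probes, and 8 of 65 members had an unadjusted p under 0.05, against 9.09% of all probes. Without MZ_Sox2 replicate 1 the positive members numbered 22 in place of 13, with a median of -0.27. The median was -0.29 without WT replicate 1 and -0.30 without MZ replicate 1. The lowest statistic was that of rps6, -1.49 (SE 0.54), with MZ_Sox2 at 5169, 6987, 4483 and 6097 and WT_Sox2 at 4300, 4373 and 4292. The 3 WT_Sox2 values of rps6 were the closest of any group.

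Between the Sox2-injected groups 46 members were higher in MZ_Sox2 (median 0.27, against 0 for all probes, of which 49.6% were positive). Groups did not overlap in 5 members (7.69%) higher and 0 lower, against 4.89% and 5.37% of all probes. The genes rpl9, at 22950, 19160, 14190 and 13690 against 10230, 7867 and 12040 (0.80, SE 0.27, adjusted p = 0.505), and rps15a, at 8306, 8398, 4473 and 4527 against 2393, 3552 and 3865 (0.98, SE 0.33, adjusted p = 0.507), were among those 5. For rpl9 the further probes gave 0.42, -0.02 and -0.06. Limma called 0.0186% of all probes and no member, and 8 of 65 members had an unadjusted p under 0.05, against 7.57% of all probes. Without MZ_Sox2 replicate 2 the median was 0.10 with 36 members positive, and without replicate 1 it was 0.42 with 55. On the 1 slide that held both groups, MZ_Sox2 was represented by replicate 1, the median was -0.06 and 30 members were positive.

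Members with more than 1 probe allowed a second reading. There were 64 further probes for 33 members, 52 of them brighter than the median probe. In MZ against WT 46 of those 52 had the sign of the brightest probe, and in MZ_Pou5f1 against MZ 43 did. In MZ_Sox2 against MZ the count was 33 and in WT_Sox2 against WT 34. For rpl5b, with 8 probes, the brightest read 17930, 19930 and 48640 in WT and 32560, 40050 and 29030 in MZ, so the groups overlapped, while the dimmest, at 6.381 to 105 over all samples, lay near the dark feature. Of the paralogs, rpl22 read 331.3 to 708.7 in WT and 363.3 to 679.9 in MZ, and rpl22l1 4774 to 10320 and 7115 to 11360, and both overlapped.

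Other genes of the translation machinery were read beside the members in the same fit. Mitochondrial ribosomal protein genes, which build the separate ribosome of mitochondria, numbered 54, of which 40 were positive in MZ against WT (median 0.37), and 15 in MZ_Pou5f1 against MZ (median -0.44). Among them mrps28 had a difference of 1.57 (SE 0.40, adjusted p = 0.297) in the first and -0.90 (SE 0.40, adjusted p = 0.409) in the second. The 63 genes listed as translation factors were taken by symbol and include genes that are no factors themselves, such as eef1akmt1, eef2kmt and eif4ebp1. Of the 63, 32 were positive in MZ against WT (median 0.01). Of 30 ribosome biogenesis genes measured, 12 were (median -0.16), and eif6 stood in both lists. No gene of these 3 lists was called in any of the 7 comparisons. Of 5 ribosomal protein S6 kinase genes, a further list, 1 was called lower in WT_Sox2 against WT (adjusted p = 0.0493, limma), against 0.0977% of all probes called. With the values as deposited 0 probes were called in that comparison. The difference between the lists was not tested.

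By RefSeq's gene list, 16 of the 65 members (24.6%) held an annotated small nucleolar RNA gene within their span, 43 such genes in all, against 0.215% of the other protein coding genes. Small nucleolar RNAs guide the modification of ribosomal RNA, and rpl4, with 7, held the most. The members lay on 22 chromosomes, and 0 pairs of them were neighbours among protein coding genes.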

How the data were processed

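The authors deposited 1 intensity value per probe and sample on a linear scale. Per the labels' design text the Cy3 and Cy5 channels were split and quantile normalised. The scanner software was Agilent Feature Extraction, per the submitters' processing notes, and how background was corrected is not stated. In 14 of 16 columns the sorted values were identical. The other 2, MZ_Pou5f1 replicate 2 and MZ_Sox2 replicate 4, were mapped onto them by rank, and log2 was taken. Of 21555 features, 60 controls were left out. The number of samples limits the precision, and no read depth applies.

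All 16 samples entered 1 limma fit (version 3.58.1, R 4.3.3) of group means with a dye term, and array was a random block (consensus correlation 0.04286). Moderated tests were two-sided, adjusted by Benjamini-Hochberg across 21495 probes, at 0.05. The fit was also run on simulated data, whose noise was independent for each probe and sample. Those data held no dye, array or slide effect, so they do not check how the fit treats such effects. Each gene is its brightest probe. Members, lists and tests were chosen with earlier results of these data known. Named genes were the 6 members with the highest and the 6 with the lowest moderated statistic in the 4 comparisons of 1 treatment or genotype step, 3 and 3 in the other 3, members chosen by role, members sharing a symbol stem, and those with the widest and narrowest spread. The genes rpl8 and rpl14 were added after their values were seen. Alternatives covered normalization, dye, blocks, samples, dim probes, empirical Bayes options and the probe rule. Figures used Python 3.11.15 and matplotlib 3.10.9. Sequences were not used here.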

Additional observations from a re-analysis of the deposited data

Results flagged for a closer look

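In the 4 MZ_Sox2 samples, 1 value stood apart from the rest for 3 of 49 genes and list medians examined. Chance flags about 1 in 20. For rpl18 the gap between replicate 2 and its nearest neighbour was 0.838 of the range, with intensities of 421.1, 950.9, 359.6 and 394.2. For rpl19 replicate 1 stood below the others, with a ratio of 0.89, at 15060 against 29830 to 32460. For rpl36a, a large subunit protein, replicate 1 was also the low sample, with a ratio of 0.834, at 1641 against 3131 to 3560.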

How the results depend on the processing

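Outside the fits that left out 1 sample in turn, limma called 0 members in each comparison under every alternative run. These included 2 fits chosen after seeing the data, without the 2 samples with a dark feature above 50 and without the 2 samples mapped by rank. Of the medians 86 moved by less than 0.27, the pooled SD of sample medians within groups, and 3 moved by more. Some medians were smaller in size than that limit, so they could change sign and count as kept. These were 0.21 in WT_Sox2 against WT, 0.22 in MZ_Pou5f1 against WT and -0.25 in MZ_Sox2 against MZ. The median in MZ_Sox2 against WT_Sox2, 0.27, lay at the limit. Of the differences of named genes 931 kept their direction and 5 did not. The cause was not tested for any of these changes. With slide as a fixed block the median was -0.29 for MZ_Pou5f1 against MZ, -0.88 for the difference of the Sox2 effects and -0.15, with 26 members positive, for MZ_Sox2 against WT_Sox2. That fit could not estimate MZ_Sox2 against MZ or WT_Sox2 against WT, and MZ_Sox2 replicate 1 carried the link between slides. With values as deposited 25 members were positive in MZ_Sox2 against MZ. The large minus small subunit median with slide fixed was 0.27 for the difference of the Sox2 effects, -0.18 for MZ_Sox2 against WT_Sox2 and -0.10 for MZ_Pou5f1 against WT, also -0.10 with slide random. Without the 2 samples with a dark feature above 50 it was 0.14 for MZ against WT, 0.05 for WT_Sox2 against WT and -0.11 for MZ_Pou5f1 against WT. With the mean of all probes of a gene it was -0.01 for WT_Sox2 against WT and 0 for MZ_Sox2 against WT_Sox2. By sample, that difference with the mean over members was 0.34 in WT replicate 3, 0.33 in MZ replicate 1, 0.17 in MZ replicate 2 and -0.19 in WT_Sox2 replicate 2. With the median as centre it was 0.13 in MZ replicate 2, 0.04 in MZ_Pou5f1 replicate 3 and 0.10 in WT_Sox2 replicate 1, and without dim members -0.25 in MZ replicate 1. Single genes that turned were rps7 in MZ against WT (0.32) and rpl13a in MZ_Pou5f1 against WT (0.03) with the mean of all probes, rpl5a in MZ against WT (-0.11) and rpl36 in WT_Sox2 against WT (0) without the 2 samples with a dark feature above 50, and rps14 in MZ_Sox2 against MZ (-0.14) with only the groups compared.

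Leaving out each sample in turn, limma called 0 to 12 members in MZ against WT, 0 to 3 in MZ_Pou5f1 against MZ and 0 elsewhere. The positive members numbered 9 to 23 in MZ_Sox2 against MZ and 9 to 22 for the difference of the Sox2 effects. The large minus small subunit median ranged from -0.18 to 0.03 in MZ against WT, -0.11 to 0.07 in MZ_Pou5f1 against MZ, -0.36 to 0.03 in WT_Sox2 against WT, 0.02 to 0.42 for the difference of the Sox2 effects, -0.02 to 0.12 in MZ_Sox2 against WT_Sox2 and -0.34 to -0.10 in MZ_Pou5f1 against WT. In MZ against WT rps14 ranged from -1.27 to 0.51, rps20 from -0.62 to 0.23 and rps3 from -0.58 to 0.55. The gene rps24 ranged from -0.32 to 1.63 in MZ_Pou5f1 against MZ and from -0.20 to 1.68 in MZ_Sox2 against MZ, and rpl36 from -1.62 to 0.04 in WT_Sox2 against WT.

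The replicate block, with the number as a fixed term, changed no call and gave medians of 0.65 in MZ against WT and -0.59 in MZ_Pou5f1 against MZ. The deviations of samples with the same number correlated at -0.68 to 0.51, so the numbers were not taken as pairing. Levels near the dark feature, as for rps24 and rps8b, limit what these probes can show.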

Other observations

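The acidic stalk protein gene rplp2b lay outside the rule by its symbol. Its intensity was 14910, 15340 and 15250 in WT and 33430, 26620 and 18120 in MZ, so the MZ samples lay above the WT samples. It was 16670, 16650 and 18770 in MZ_Pou5f1, 25950, 25900 and 14610 in WT_Sox2, and 11240, 36800, 18420 and 17200 in MZ_Sox2, where replicate 1 was the lowest of all 16 samples and replicate 2 the highest.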
